A study of Homo sapiens with 18 samples.

Results

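The early response factors of the AP-1 and EGR families were followed in K562 cells that express BASP1, a transcriptional corepressor of WT1, or a form of BASP1 that cannot be lipidated. The set holds 10 genes chosen by symbol, FOS, FOSB, FOSL1, FOSL2, JUN, JUNB, JUND, EGR1, EGR2 and EGR3, out of 28395 genes in the RNA-seq tables. Accessibility was taken from 35 of 85549 ATAC-seq regions, those within 5 kb of these genes. With wild type BASP1, FOS, FOSB, FOSL1 and EGR1 rose by less than 2-fold and JUN and JUNB fell slightly. With BASP1-G2A, FOS, FOSB, FOSL2, EGR2 and EGR3 rose by more than 2-fold, FOSL1 rose by less, and the JUN genes and EGR1 did not pass the test.

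AP-1 is a dimer of basic leucine zipper proteins. FOS proteins do not form stable dimers with each other and pair with a JUN protein, whereas JUN proteins also pair among themselves. EGR proteins are zinc finger factors that bind GC-rich sites, and the zinc fingers of WT1 are closely related to theirs. FOS, FOSB, JUN, JUNB, EGR1, EGR2 and EGR3 are immediate-early genes, transcribed within minutes of a growth signal through serum response factor, its ternary complex partners and CREB, and their messages are short-lived. In blood cells these factors are known for roles in the myeloid and megakaryocytic lineages.

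K562 is a human chronic myelogenous leukemia line with erythroid features. V-K562 cells are the control derivative, B-K562 cells express wild type BASP1, and G-K562 cells express BASP1-G2A, in which the glycine that receives the N-terminal myristoyl group is changed to alanine. The derivatives were selected and kept as pools under G-418. By the study's methods, the cells taken for ATAC-seq were incubated with DNase before they were harvested. Each line has 3 libraries for RNA-seq and 3 for ATAC-seq, which the labels number and the study describes as independent replicates of the same pool.

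The RNA-seq values, counts divided by a size factor for each library and called normalized counts here, summed to 32074895 to 33138341 per library. BASP1 itself was at 5 to 7 in the 3 control libraries, at 6189 to 6849 with wild type BASP1 and at 8124 to 12538 with BASP1-G2A, which separates the control libraries from those of both BASP1 lines. The level does not tell wild type BASP1 from BASP1-G2A, and the ATAC-seq libraries were not checked this way. The summed value of 8 erythroid markers was 125427 to 140589 in the control libraries, 207856 to 211504 in those of B-K562 and 68747 to 74412 in those of G-K562 cells. The sum of 7 markers of other blood cells was 574 to 715, 267 to 286 and 295 to 410 in the same order, and MS4A1, which marks B cells, was at 0 in every library. The sum of 4 heat shock genes was 9917 to 11278, 15928 to 16082 and 13429 to 15594. The part of these shifts in the results was not tested. ATAC-seq libraries held 47111 to 55570 peaks. Libraries of each line differed by more than counting error, and none was identical to another.

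The promoters show what the members share in sequence. RefSeq promoter windows of GRCh38 were matched by symbol for 8 of the 10 genes, with 3 starts for EGR2, and the 250 bases before each start were searched on both strands. The CRE core TGACGT, the stem of CREB sites, was present in FOS, FOSB, FOSL2, JUND, EGR1 and EGR2, 6 of the 8 genes, against 8.62% of the 27305 genes with such a window. The CArG box, the letters read by serum response factor, was present within these 250 bases in EGR1 and in EGR2, against 1.44% of genes. Bases further from the starts were not searched, so absence here does not mean that a gene lacks a site. TGACNTCA, a longer form that can overlap the CRE core, matched JUN and JUND against 8.29% of genes. The AP-1 site TGANTCA matched none of the 8 genes against 8.06% of genes, and the EGR site GCGNGGGCG matched EGR1 alone against 10.1%. The windows of FOS and FOSB, which rose in both lines, and of EGR1 and EGR2, which hold CArG boxes, are shown 5′ to 3′. Each ends before the first exon base of its own gene, with every motif in capitals. The EGR2 window lies within the annotated span of EGR2, and the FOSB window within that of ERCC1.
FOS: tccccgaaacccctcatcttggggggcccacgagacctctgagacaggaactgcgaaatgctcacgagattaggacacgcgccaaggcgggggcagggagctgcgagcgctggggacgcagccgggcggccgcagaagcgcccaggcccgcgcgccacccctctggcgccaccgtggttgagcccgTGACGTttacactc
FOSB: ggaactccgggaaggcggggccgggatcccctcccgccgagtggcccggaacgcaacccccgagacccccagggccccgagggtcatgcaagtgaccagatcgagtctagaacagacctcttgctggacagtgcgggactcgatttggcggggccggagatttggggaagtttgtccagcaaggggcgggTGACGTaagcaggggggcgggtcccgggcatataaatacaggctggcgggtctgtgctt
EGR1: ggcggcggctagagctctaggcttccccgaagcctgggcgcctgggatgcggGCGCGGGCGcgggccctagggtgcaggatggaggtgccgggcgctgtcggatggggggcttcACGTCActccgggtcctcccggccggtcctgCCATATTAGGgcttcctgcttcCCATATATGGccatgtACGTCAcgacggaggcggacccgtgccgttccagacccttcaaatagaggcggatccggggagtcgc
EGR2: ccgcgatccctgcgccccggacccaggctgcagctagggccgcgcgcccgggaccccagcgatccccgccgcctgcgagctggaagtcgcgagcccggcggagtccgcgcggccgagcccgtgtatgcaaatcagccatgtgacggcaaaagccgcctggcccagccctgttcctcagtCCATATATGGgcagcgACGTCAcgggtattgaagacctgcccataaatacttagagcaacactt
These are chr14:75278578-75278777 on the plus strand, chr19:45467746-45467994 on the plus strand, chr5:138465229-138465478 on the plus strand and chr10:62816374-62816616 on the minus strand. The core in FOS lies at -64 to -59 and that in FOSB at -60 to -55, counted back from -1, the base before the RefSeq start. EGR1 holds cores at -136 to -131 and -67 to -62 and CArG boxes at -105 to -96 and -83 to -74. EGR2 holds a core at -55 to -50 and a CArG box at -71 to -62 before its innermost start. A match of letters is not evidence of binding.

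Levels per kb of merged exon set the order of the members. All levels per kb, with the family sums and shares made from them, are on the scale of the G-K562 table. In V-K562 cells JUND was at 3133 ± 112 (SD, n = 3) normalized counts per kb, EGR1 at 2552 ± 421, JUN at 1661 ± 92.8, JUNB at 1497 ± 121 and FOSL1 at 798 ± 101. FOS followed at 269 ± 25.4, FOSB at 75.1 ± 3.31, FOSL2 at 45.9 ± 6.98, EGR2 at 5.56 ± 1.65 and EGR3 at 5.11 ± 0.857. The libraries of JUN and JUNB overlapped, as did those of EGR2 and EGR3, so neighbours in these pairs were not separated by their spread. Summed over the family, the FOS genes held 1077 to 1322 per kb in the V-K562 libraries, 1831 to 2042 in those of B-K562 and 1606 to 3949 in those of G-K562 cells. The JUN genes held 6172 to 6466, 5626 to 5962 and 5837 to 7404 per kb in the same order, so the JUN sum exceeded the FOS sum in every library. FOSL1 made up 67.1% ± 1.75 of the FOS sum in V-K562 and 42.5% ± 11.1 in G-K562 cells, and FOSB 6.39% ± 0.913 and 16.7% ± 3.21.

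**Figure D1:**
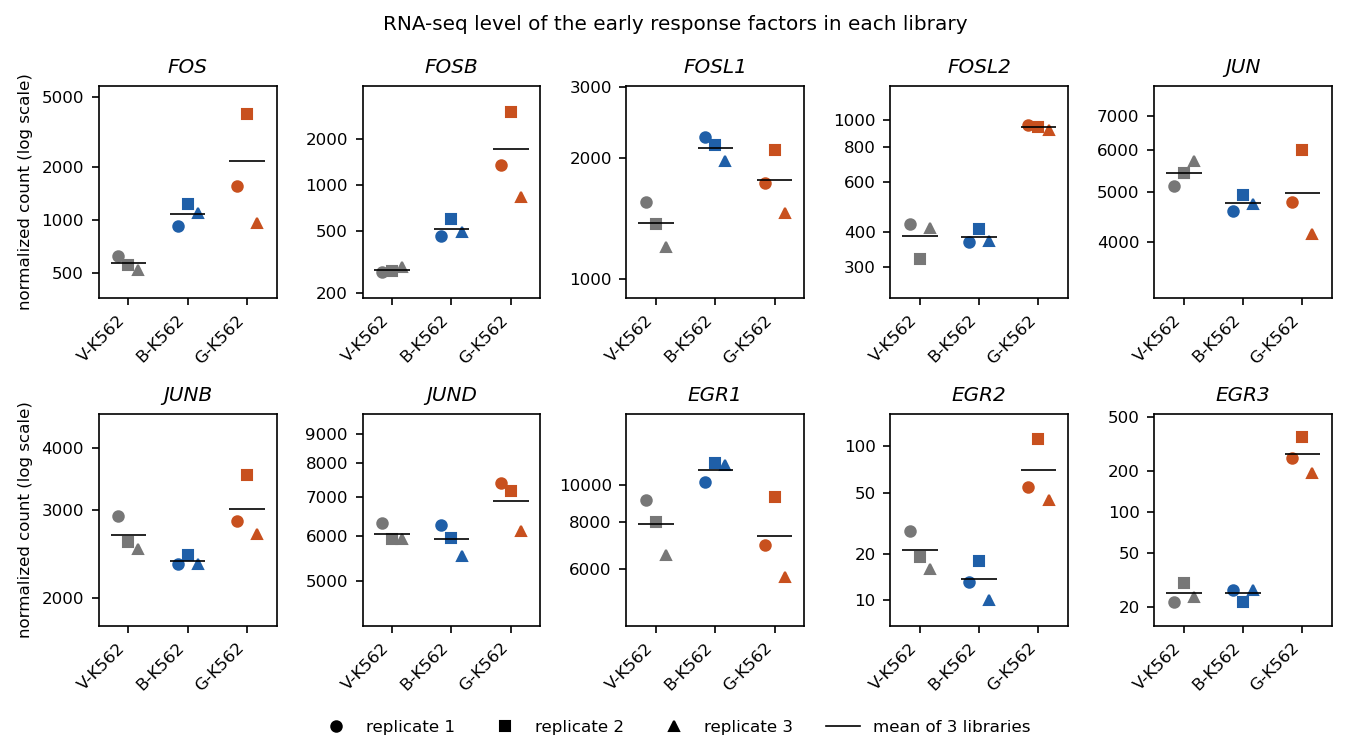
Normalized counts of the 10 genes in each library on a log axis, with V-K562 and B-K562 values from the table of B-K562 and G-K562 values from its own table. Symbols mark replicates and bars the mean of 3 libraries, and G-K562 replicate 2 is the highest of its line for 8 of the 10 genes.

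In B-K562 cells 4 of the 10 members were higher and 2 lower than in the control at an adjusted p of at most 0.05 (limma, Benjamini-Hochberg), which is what passing means here, where 38.6% of 14958 genes passed higher and 37.2% lower. With a change of at least 2-fold also asked for, 0 of the 10 were called, against 6.46% of all genes higher and 14.1% lower. At an unadjusted p under 0.05 limma gave 6. Quantile normalization, which moved the share of called genes that were higher from 31.4% to 47.9%, gave 5 members passing higher and 3 lower. The median difference of the members was 0.00 on the log2 scale and that of all genes 0.01. In G-K562 cells 6 of 10 passed higher than in V-K562 cells and 0 lower, with 33.5% of 15271 genes higher and 33.3% lower. Of these 5 were called at 2-fold, all higher, against 8.81% of all genes called higher and 10.3% lower. The median of the members was 0.80 and that of all genes 0.00. The control libraries are shared by these comparisons, and their values in the table of G-K562 are 1.015 to 1.020 times those in the table of B-K562, which are the ones printed for single genes unless another scale is named. G-K562 and B-K562 were compared directly in a fit of 9 libraries, where 6 members passed higher and 2 lower, with 38.1% of 15521 genes higher and 40.5% lower. In that fit 4 were called, all higher, against 17.4% of genes called higher and 12.5% lower. In RNA from a whole pool, more message in every cell and more cells with the message cannot be told apart.

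**Figure D2:**
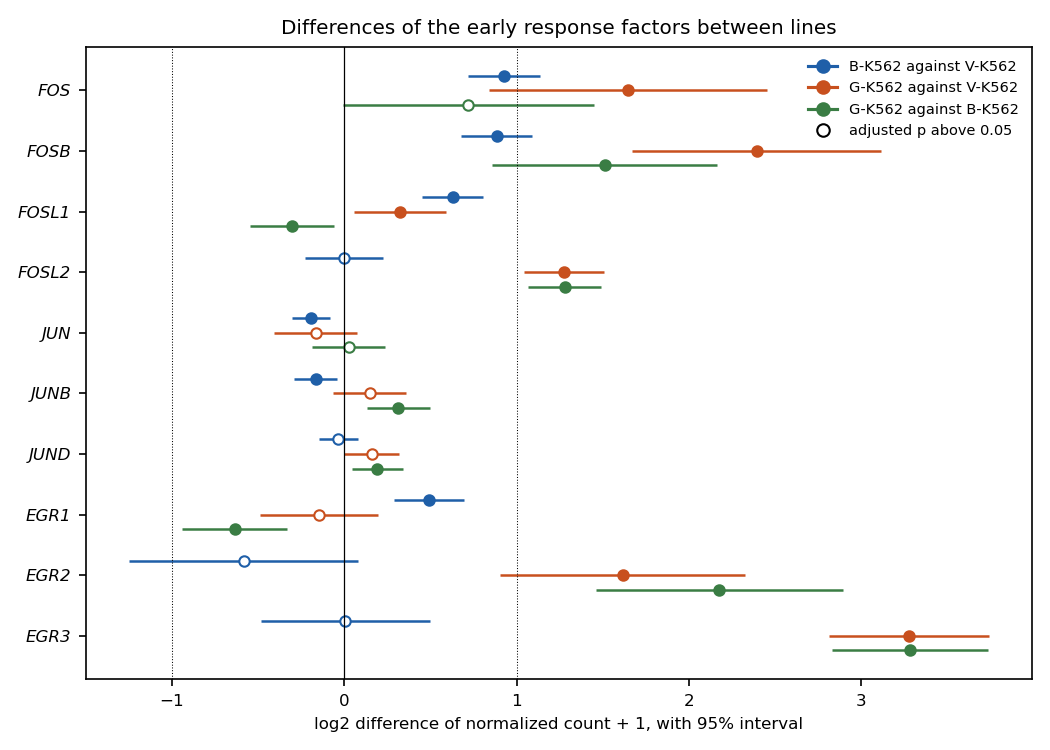
Log2 differences of normalized count + 1 with 95% intervals for the 10 genes in 3 comparisons, with open circles where the adjusted p exceeded 0.05 and dotted lines at a 2-fold change. EGR3, EGR2, FOSB and FOSL2 lie beyond 2-fold in G-K562 cells against both other lines.

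FOS, the classic partner of JUN in AP-1, was at 631, 555 and 524 in V-K562 and at 928, 1240 and 1100 in B-K562 libraries. The groups did not overlap, and the log2 difference was 0.93 ± 0.10 (SE, n = 3 and 3, adjusted p = 1.1e-06). G-K562 libraries held 1557, 3993 and 959, against 641, 564 and 535 in V-K562 on the scale of that table. Every G-K562 library exceeded every V-K562 library, and the spread within G-K562 was wide. The log2 difference was 1.65 ± 0.37 (adjusted p = 0.0020), and 1.08 (adjusted p = 8.2e-05) without G-K562 replicate 2. Against B-K562 cells it was 0.72, with a 95% interval of -0.01 to 1.45 and an adjusted p of 0.066, and became 0.15 without G-K562 replicate 2 and 1.18 (adjusted p = 0.0012) without replicate 3.

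FOS lies on chromosome 14 beyond 70 Mb, at 75278778 to 75282234 (GRCh38, plus strand), in a stretch where most genes were higher in G-K562 cells. There 201 tested genes had a median log2 difference of 0.62 from V-K562, 156 of them passing higher and 16 lower, and the 73 within 5 Mb of FOS had a median of 0.58. The 766 ATAC-seq regions beyond 70 Mb had a median of 0.48. In B-K562 cells the 193 genes tested there had a median of 0.01. Around the other 9 members the medians of genes within 5 Mb in G-K562 against V-K562 lay between -0.14 and 0.13. Between G-K562 and B-K562 cells the 74 genes within 5 Mb of FOS had a median of 0.72. Around the other members the medians in that comparison lay between -0.36 and 0.44. The part of this stretch in the rise of FOS was not tested.

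FOSB, on chromosome 19 at 45467995 to 45475179, binds DNA like FOS as a dimer with a JUN protein. It was at 271, 274 and 292 in V-K562 and at 466, 598 and 491 in B-K562 libraries. The log2 difference was 0.88 ± 0.09 (adjusted p = 1.4e-06), again with no overlap. In G-K562 libraries it was at 1340, 2995 and 831, with a log2 difference of 2.39 ± 0.33 from V-K562 (adjusted p = 5.6e-05). All 3 libraries exceeded the highest B-K562 library, and G-K562 exceeded B-K562 by 1.51 ± 0.30 (adjusted p = 3.9e-04). Without G-K562 replicate 2 these differences were 1.89 and 1.01, and both calls held. In the annotation of the tables ERCC1, on the opposite strand, spans FOSB. Whether counting used strand is not given in the sources used here, so part of the FOSB count could come from ERCC1. The mean value of ERCC1 was 2940 in V-K562, 2236 in B-K562 and 3337 in G-K562 cells. The part of ERCC1 in the FOSB values was not tested.

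FOSL1, which encodes FRA1 and lies on chromosome 11 at 65892136 to 65900526, was at 1556, 1369 and 1203 in V-K562 and at 2250, 2151 and 1959 in B-K562 libraries. The log2 difference was 0.63 ± 0.08 (adjusted p = 9.6e-06). G-K562 libraries held 1728, 2096 and 1461 and overlapped those of V-K562, at 1580, 1390 and 1228 in that table. The log2 difference of 0.32 ± 0.12 passed with an adjusted p of 0.035, and leaving out any of 4 libraries, V-K562 replicate 2 or 3 or G-K562 replicate 1 or 2, ended this with adjusted p-values of 0.072 to 0.15. FOSL1 was lower in G-K562 cells than in those of B-K562 by a log2 difference of -0.30 ± 0.11 (adjusted p = 0.024), also lost without B-K562 replicate 1 or 2 or G-K562 replicate 1 or 3 (adjusted p of 0.058 to 0.13). The other FOS genes had positive differences there.

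FOSL2, which encodes FRA2 and lies on chromosome 2 at 28392759 to 28417312, was at 426, 319 and 413 in V-K562 and at 367, 409 and 372 in B-K562 libraries. The groups overlapped, and the log2 difference was 0.00 with a 95% interval of -0.23 to 0.22. In G-K562 libraries FOSL2 was at 965, 944 and 925, a log2 difference of 1.28 ± 0.11 from V-K562 (adjusted p = 9.0e-07) and of 1.28 ± 0.10 from B-K562 cells (adjusted p = 2.1e-08). Its G-K562 libraries differed less from each other than those of any other member, and without replicate 2 the difference from V-K562 was 1.28.

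The JUN genes moved little. JUN, on chromosome 1 at 58780791 to 58784113, was at 5134, 5434 and 5714 in V-K562 and at 4590, 4918 and 4740 in B-K562 libraries, and fell by 0.19 on the log2 scale (SE 0.05, adjusted p = 0.0036). In G-K562 libraries it was at 4774, 6022 and 4137, which straddled the V-K562 values, with a log2 difference of -0.17 and a 95% interval of -0.41 to 0.08. Without G-K562 replicate 2 that difference was -0.31 and passed with an adjusted p of 0.0026. JUNB, a weaker activator than JUN on many promoters, lies on chromosome 19 at 12791496 to 12793311 and was at 2506 to 2924 in V-K562 and 2341 to 2446 in B-K562 libraries and fell by 0.17 (adjusted p = 0.020). The fall of JUNB no longer passed without V-K562 replicate 1 or B-K562 replicate 1 or 3 (adjusted p of 0.055 to 0.071). The G-K562 libraries of JUNB held 2688 to 3527, which was higher than in B-K562 cells by 0.31 ± 0.09 (adjusted p = 0.0039) but not separated from V-K562 (adjusted p = 0.20). JUND, on chromosome 19 at 18279694 to 18281656 and the JUN gene least dependent on growth signals, was at 5916 to 6307 in V-K562 cells, 5529 to 6261 in those of B-K562 and 6108 to 7393 in G-K562 libraries. It passed between G-K562 and B-K562 cells alone, at 0.19 ± 0.07 (adjusted p = 0.019), and not without B-K562 replicate 3 or G-K562 replicate 1 or 2 (adjusted p of 0.055 to 0.10). Without G-K562 replicate 3 it passed against V-K562 cells at 0.24 (adjusted p = 0.0082).

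EGR1, the most abundant EGR gene, lies on chromosome 5 at 138465492 to 138469315 and was at 9140, 7964 and 6513 in V-K562 and at 10180, 11467 and 11272 in B-K562 libraries. The log2 difference was 0.49 ± 0.09 (adjusted p = 3.0e-04), with no overlap. In G-K562 libraries it was at 6927, 9305 and 5720, with a log2 difference of -0.15 and a 95% interval of -0.49 to 0.20 from V-K562. It was lower than in B-K562 cells by a log2 difference of -0.64 ± 0.14 (adjusted p = 9.3e-04). Without G-K562 replicate 2 the difference from V-K562 was -0.33 and passed with an adjusted p of 0.026, and without replicate 3 it was 0.02.

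EGR2, a factor of nerve and immune cells, is annotated on chromosome 10 from 62811996 to 62919895 with distant upstream exons. It was near the filter of 10 in both other lines, at 28, 19 and 16 in V-K562 and 13, 18 and 10 in B-K562 libraries. The difference of -0.58 between them had a 95% interval of -1.25 to 0.08. G-K562 libraries held 54, 111 and 45, which exceeded every library of the other lines. The log2 difference was 1.61 ± 0.32 from V-K562 (adjusted p = 9.3e-04) and 2.18 ± 0.33 from B-K562 cells (adjusted p = 3.2e-05). EGR3, on chromosome 8 at 22687659 to 22693302, binds the same kind of site as EGR1. It was at 22, 30 and 24 in V-K562 and 27, 22 and 27 in B-K562 libraries. In G-K562 libraries it was at 250, 353 and 195, and the log2 difference of 3.28 ± 0.21 from V-K562 (adjusted p = 1.3e-07) was the largest among the 10 genes. Against B-K562 cells it was 3.28 ± 0.21 (adjusted p = 3.2e-09). Per kb EGR3 still made up 2.16% ± 0.109 of the EGR family in G-K562 cells and EGR1 97.1% ± 0.286. Without G-K562 replicate 2 the differences from V-K562 were 1.23 for EGR2 and 3.05 for EGR3, and both calls held.

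In most of these genes the G-K562 libraries differed in the same order. Replicate 2 was the highest of the 3 for 8 of the 10 members, for 21 of 23 other immediate-early genes and for 4 of 4 heat shock genes, against 5493 of 15521 tested genes. The median member in replicate 2 lay 0.50 log2 units above the mean of the other libraries, and the median member in replicate 3 was at -0.44. BASP1 was also highest in replicate 2, at 12538 against 9323 and 8124. The part of the heat shock genes or of the BASP1 level in this spread was not tested. With replicate 2 left out the same 5 members were called in G-K562 against V-K562 cells.

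**Figure D3:**
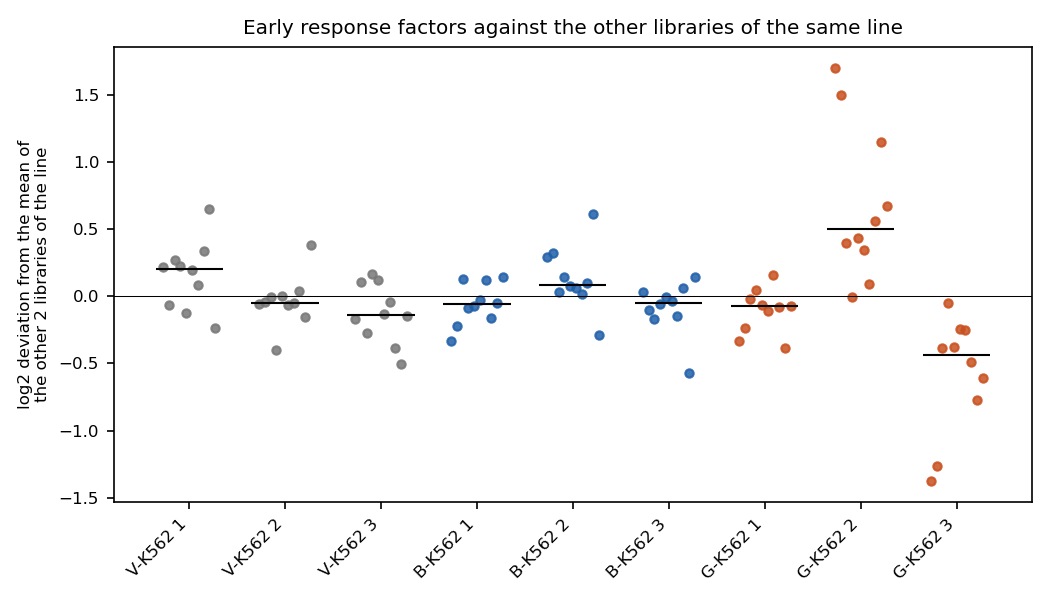
Log2 deviation of each of the 10 genes in a library from the mean of the other 2 libraries of its line, with bars at the median. In G-K562 replicate 2, FOS lies 1.71 and EGR2 1.15 above the other libraries.

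Lists of genes around the members, chosen with earlier results of these data known, were read with the background shares given above in view. In the counts of these lists, genes that rose or were higher, and fell or were lower, are those that passed. Of all genes, 38.6% passed higher and 37.2% lower in B-K562 cells, and 33.5% and 33.3% in G-K562 cells. Called at 2-fold were 6.46% higher and 14.1% lower in B-K562 cells, and 8.81% and 10.3% in G-K562 cells. Of 12 tested dimer partners of AP-1 proteins, 1 rose and 9 fell in B-K562 cells, with a median of -0.62, and 4 were called lower. ATF3, a stress-induced partner of JUN, fell by 1.54 (adjusted p = 1.8e-11). In G-K562 cells 3 rose and 5 fell, and BATF3, which pairs with JUN proteins in lymphoid and dendritic cells, rose by 2.03. It was the only partner called there, joined by 1 called lower without G-K562 replicate 2. Of the EGR relatives and cofactors WT1, NAB1 and NAB2, 2 rose and 1 fell in B-K562 cells by less than 2-fold, and all 3 rose in G-K562 cells. NAB2, a corepressor of EGR proteins and itself an EGR target, rose by 1.59, and WT1, named after its value was seen, by 1.37.

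Upstream of the members, 1 of the 6 serum response and ternary complex factors rose and 3 fell in B-K562 cells, none by 2-fold. In G-K562 cells 3 rose, and MRTFB, a coactivator of serum response factor, rose most at 1.13. Of 21 genes of the Ras and MAP kinase cascade 15 rose and 5 fell in B-K562 cells, with a median of 0.23, and 3 rose and 12 fell in G-K562 cells, with a median of -0.20. HRAS rose by 1.05 in B-K562 cells and RPS6KA5, the kinase MSK1, by 1.59 in G-K562 cells. RPS6KA2, another kinase of this branch, was low, with differences of -1.26 and -1.73. Other immediate-early genes went down more often than up in B-K562 cells, 1 rising and 15 falling of 22 with a median of -0.42, and KLF10, a zinc finger factor induced by TGF-beta, fell by 1.35. In G-K562 cells 7 of 23 rose and 5 fell, with a median of 0.04, and KLF4, a zinc finger factor of monocytes and stem cells, rose by 2.57. Of these 4 were called higher, and 3 higher and 1 lower without G-K562 replicate 2.

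Genes with known AP-1 sites were lower in B-K562 cells for 10 of 11, with 1 higher and a median of -0.97, and higher in G-K562 cells for 8 of 11, with 2 lower and a median of 1.08. In G-K562 cells 6 of the list were called higher both with and without replicate 2, where 8.81% of all genes were called higher. The list was chosen with earlier results known, so these counts are not a test of AP-1 activity. Named after their values were seen, MMP1, a collagenase, had differences of -0.96 in B-K562 and 2.39 in G-K562 cells, and PLAU, the urokinase-type plasminogen activator, -1.14 and 2.14. MT2A, a metallothionein with near-identical relatives, had differences of -3.41 in B-K562 and -4.12 in G-K562 cells. The study kept only reads that mapped uniquely, so some MT2A reads may be missing from its counts. Of genes with known EGR1 sites, 3 of 8 rose and 5 fell in B-K562 cells, and 4 of 9 rose and 3 fell in G-K562 cells. PDGFA, a growth factor chain, rose by 2.51 in G-K562 cells, while PDGFB, low in all lines, had differences of -1.68 in B-K562 and -2.40 in G-K562 cells. All 8 erythroid markers rose in B-K562 cells by less than 2-fold, and in G-K562 cells 7 fell and 1 rose, with HBG1, a fetal globin, at -2.85. HBG1 and HBG2 are near-identical, so reads that fit both may also be missing. Of 4 tested markers of other blood cells 1 rose and 2 fell in B-K562 cells and 1 rose and 1 fell in G-K562 cells, with CD3D at -1.45 and -1.41. Of 4 heat shock genes 2 rose in B-K562 cells, HSPH1 by 1.92, and 3 rose in G-K562 cells.

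**Figure D4:**
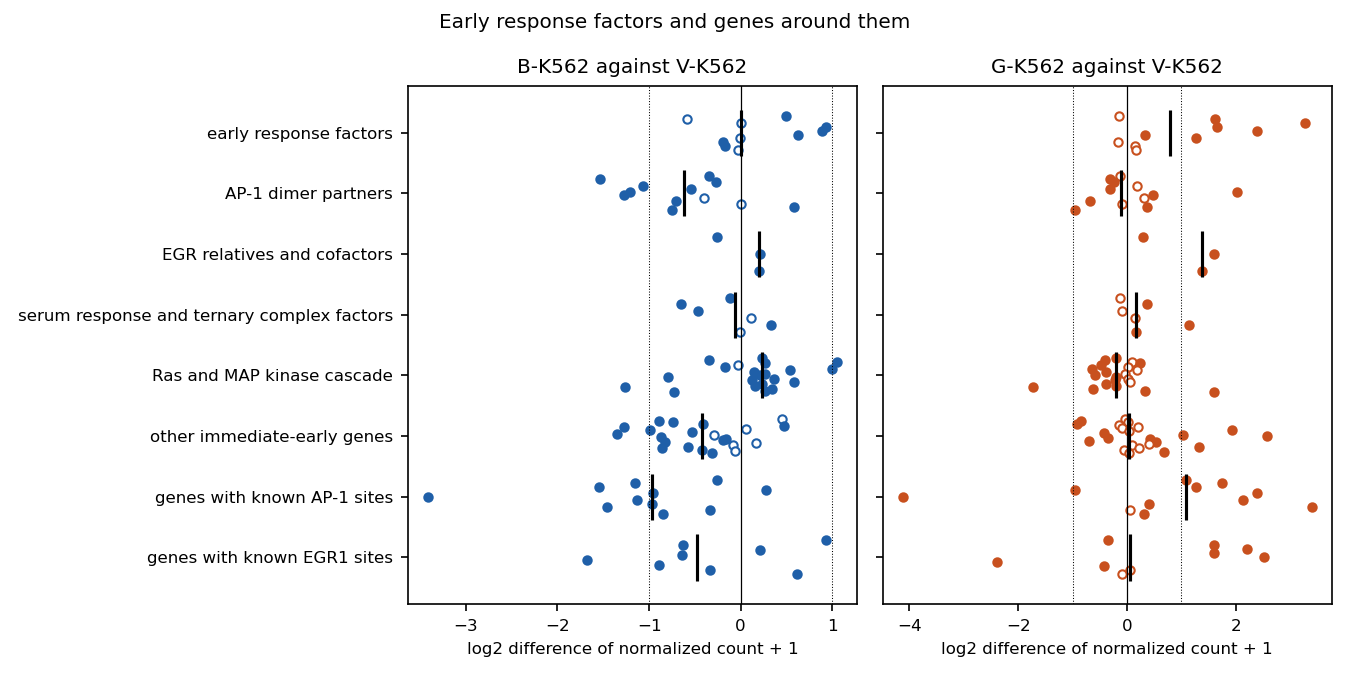
Log2 differences of normalized count + 1 for the 10 genes and 7 lists around them, in B-K562 against V-K562 cells and in G-K562 against V-K562 cells, with open circles where the adjusted p exceeded 0.05 and bars at the list median. Genes with known AP-1 sites have a median of -0.97 in B-K562 and 1.08 in G-K562 cells. All lists were chosen with earlier results of these data known.

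Over the 9 RNA-seq libraries, the genes whose log2 level followed FOS most closely were FOSB (Pearson r = 0.954), NR4A2 (r = 0.953), an immediate-early nuclear receptor, and SNX18 (r = 0.949). For JUN they were MIR7-1 (r = 0.892), TCL1A (r = 0.862) and PTCRA (r = 0.825), and for EGR1 SNORD81 (r = 0.991), SNORD104 (r = 0.989) and SPTY2D1-AS1 (r = 0.981). FOS and JUN correlated with r = 0.115 and FOS and EGR1 with r = 0.229. These 9 libraries fall into 3 lines that share their differences, so the values describe these libraries only.

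Accessibility near the members was measured as the highest pileup of tags in a merged region, scaled between libraries and set to at least 17, the value given where no peak was called. Of the 35 regions within 5 kb, 25 were tested in B-K562 against V-K562 cells, and 4 passed higher and 1 lower, where 8.69% of 52204 regions passed higher and 16.5% lower. In G-K562 cells 13 of 27 passed higher than in V-K562 and 0 lower, where 16.2% of 54213 regions passed higher and 25.8% lower. The regions passing higher in both lines include those with summits 12014 and 9918 bp from the FOSL1 start. These lie downstream of FOSL1, nearest to FIBP and CCDC85B, and were named after their values were seen. At 2-fold 0 of the 27 were called by limma, with 14 at an unadjusted p under 0.05, against 2.92% of all regions called higher and 13.0% lower. Between G-K562 and B-K562 cells 8 of 28 passed higher and 0 lower, where 12.4% of 60181 regions passed higher and 15.5% lower. The 13 and the 8 both include a FOSL2 region with its summit 20870 bp after the start. It was tested only through its G-K562 peaks, and libraries without a peak there were set to 17. Without the scaling, the median of all regions between G-K562 and V-K562 cells moved from -0.09 to 0.19, the share of called regions that were higher moved from 18.3% to 48.5%, and 20 of the 27 passed higher. The same shares moved from 20.02% to 33.9% in B-K562 against V-K562 and from 33.5% to 48.0% between the BASP1 lines, with 6 and 15 member regions then higher. Regions at gene starts moved as a class in both comparisons with V-K562 cells, with median differences of 0.23 in B-K562 and 0.32 in G-K562. Of 9821 start regions 39.9% passed higher in G-K562 against V-K562 cells, and of the 9 regions that cover a member's start 6 did. In B-K562 cells these figures were 19.5% of 9649 and 1 of 9. Between the BASP1 lines the median over 10010 start regions was 0.07, 13.0% passed higher with BASP1-G2A and 7.72% lower, and 4 of the 9 member regions passed higher.

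The start region of FOS had a scaled pileup of 116 ± 18.5 (SD, n = 3) in V-K562, 91.3 ± 9.54 in B-K562 and 152 ± 7.96 in G-K562 cells. All G-K562 libraries exceeded all others. It was higher in G-K562 cells than in those of V-K562 by 0.44 ± 0.13 on the log2 scale (adjusted p = 0.030). It was higher than in B-K562 cells by 0.73 ± 0.13 (adjusted p = 0.0023). The regions within 5 Mb had a median of 0.43 in the former comparison (241 regions) and of 0.39 in the latter (268 regions). The regions with summits at -1708 bp and 5268 bp from the FOS start, chr14:75276925-75277454 and chr14:75283944-75284503, were higher than in V-K562 cells by 0.68 and 0.54. These and the intronic, distal and second EGR3 regions named next were chosen after their values were seen. Leaving out V-K562 replicate 2 or 3 or any G-K562 library brought the adjusted p of the start region against V-K562 to 0.063 to 0.097.

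At FOSB the start region held 52.3 ± 6.63, 60.3 ± 2.96 and 61.5 ± 17.6 in the same order of lines and passed in no comparison. An intronic region with its summit 1316 bp after the start, chr19:45469052-45470015, held 90.5 ± 9.48, 125 ± 11.6 and 141 ± 23.8. It was higher than in V-K562 cells by 0.48 ± 0.12 in B-K562 (adjusted p = 0.024) and by 0.66 ± 0.15 in G-K562 cells (adjusted p = 0.010). The start region of FOSL2 held 196 ± 27.5, 219 ± 11.2 and 295 ± 16.1, a difference of 0.63 ± 0.11 between G-K562 and V-K562 cells (adjusted p = 0.0031). The start region of FOSL1 held 181 ± 14.3, 168 ± 7.50 and 241 ± 18.4, a difference of 0.45 ± 0.10 between the same lines (adjusted p = 0.0084).

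At the starts of the JUN genes accessibility in G-K562 cells is to be read against a median difference of 0.32 over all 9821 start regions, and the RNA of these genes did not pass. The JUN start region, the only one within 5 kb of JUN, held 312 ± 13.4 in V-K562 cells, 364 ± 23.5 in those of B-K562 and 439 ± 35.8 in G-K562 cells, a difference of 0.52 ± 0.08 between G-K562 and V-K562 (adjusted p = 0.0016). The start regions of JUNB and JUND exceeded those of V-K562 cells by 0.36 ± 0.09 (adjusted p = 0.015) and 0.39 ± 0.10 (adjusted p = 0.014), JUNB not without G-K562 replicate 3 and JUND not without replicate 2 or 3 (adjusted p of 0.059 to 0.063). The JUND region, at 233 ± 19.4 in V-K562 and 293 ± 23.9 in B-K562 cells, was the only start region that passed in B-K562 cells, by 0.35 ± 0.10 (adjusted p = 0.032). It no longer passed when any of 5 libraries was left out, all but V-K562 replicate 3. Under the alternatives to the processing this difference of JUND ranged from 0.106 to 0.499, with a limma adjusted p of up to 0.29. The regions at the starts of EGR1 and EGR2 passed in no comparison. EGR1 held 294 ± 28.0, 304 ± 17.2 and 318 ± 22.8, and EGR2 155 ± 16.4, 157 ± 13.4 and 134 ± 6.51.

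No region covered the EGR3 start, and the nearest had its summit at -234 bp. A peak was called there in 3 V-K562, 1 B-K562 and 3 G-K562 libraries, with scaled pileups of 53.3 ± 10.2 in V-K562, 41.7 in the B-K562 library and 66.7 ± 9.65 in G-K562 cells. The B-K562 libraries without a peak were set to 17. On that footing the region was lower in B-K562 than in V-K562 cells by a log2 difference of -1.09 ± 0.34 (adjusted p = 0.049), and higher in G-K562 cells than in those of B-K562 by 1.49 ± 0.33 (adjusted p = 0.0076). These were the only calls at 2-fold within 5 kb of the members, against 1.53% of all regions higher and 6.12% lower in the former comparison and 4.32% higher and 8.56% lower in the latter. The call against V-K562 was lost without any of 5 libraries, all but B-K562 replicate 1, with adjusted p-values of 0.10 to 0.17. A second region, with its summit at -2154 bp, held 79.4 to 84.8 in V-K562 cells, 77.3 to 92.9 in those of B-K562 and 92.4 to 124 in G-K562 libraries, and exceeded V-K562 in G-K562 cells by 0.47 ± 0.14 (adjusted p = 0.031). Within 10 kb of the members, 1 region was called higher and 1 lower in each BASP1 line against V-K562. Between the BASP1 lines 3 were called higher and 1 lower. The lower calls in G-K562 cells were of a region with its summit at -6782 bp from the JUNB start, nearest to MIR5684. It differed by -1.84 from V-K562 and by -2.07 from B-K562 cells, and was named after its values were seen.

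**Figure D5:**
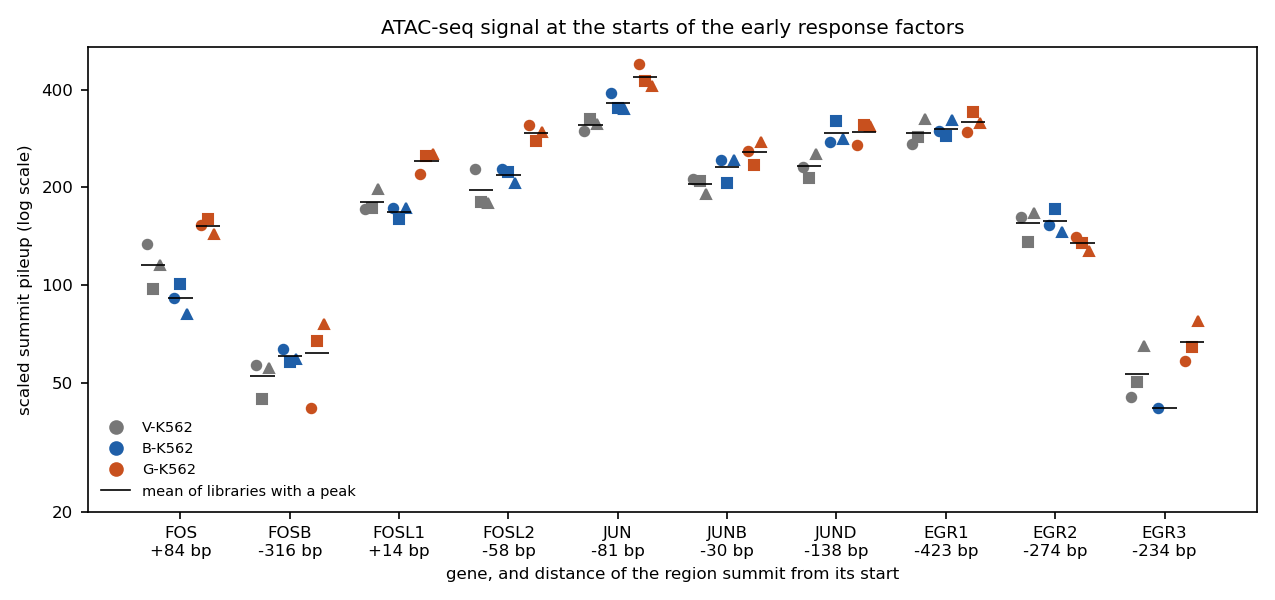
Scaled summit pileup on a log axis for the region at each start, or for EGR3 the nearest one, with its distance from the start. Circles, squares and triangles are replicates 1, 2 and 3, bars the mean of libraries with a peak. In FOS, FOSL1, FOSL2 and JUN all G-K562 libraries lie above all V-K562 and B-K562 libraries.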

How the data were processed

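RNA-seq (TruSeq Stranded mRNA) and ATAC-seq (Active Motif kit) covered 3 replicates of every line. The authors aligned reads to GRCh38 (STAR for RNA-seq, BWA-MEM for ATAC-seq), removed duplicates, assigned RNA-seq reads to RefSeq transcripts with Subread and divided the counts by DESeq2 size factors. The deposited RNA-seq signal is this quotient, rounded, in a table for B-K562 and another for G-K562, both holding the control libraries. The deposited ATAC-seq signal is the MACS2 pileup at each peak, called in single libraries sampled to equal tag numbers. The tables also hold the authors' fold changes and adjusted p-values, which were not used. Raw counts were not used here, so no count model was fitted.

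A gene was tested when 3 or more libraries reached 10, with limma 3.58.1 (R 4.3.3) and a mean-variance trend on log2(value + 1), which understates changes of low genes. Benjamini-Hochberg adjustment ran over all genes tested, and called genes also changed by at least 2-fold. To compare the BASP1 lines, the table of B-K562 was multiplied by 1.017, the mean ratio of the control columns. Peaks of 9 libraries were merged into 85549 regions, scaled by a trimmed mean (30% of log ratios and 5% of mean values trimmed), set to at least 17 (the 5th percentile) and tested where 3 or more libraries had a peak. Where no peak was called, tags may still have been present.

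The members and lists were chosen with earlier results of these data known. By rule the text names all members, the largest called rise and fall of every list against V-K562, the 3 genes most correlated with FOS, JUN and EGR1, and regions within 5 kb that were called or lay at a start. A gene that this rule would name is not reported here. Sequences come from RefSeq (GRCh38.p14) and equal those of the genome. The methods were tested on simulated data. Alternatives were another pseudocount, filter, scaling, floor, distance or trend, a replicate block, leaving out each library and, added after seeing the data, lists without G-K562 replicate 2. Counting error is largest near the filter, and p-values measure the spread between replicates of 1 pool per line, which may be partly technical.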

Additional observations from a re-analysis of the deposited data

Results flagged for a closer look

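Differences between the G-K562 and B-K562 lines that passed a direct test in the fit of 9 libraries are given here, where 38.1% of all genes passed higher and 40.5% lower, and 12.4% and 15.5% of all regions. On the log2 scale G-K562 minus B-K562 was 1.51 for FOSB, -0.30 for FOSL1, 1.28 for FOSL2, 0.31 for JUNB, 0.19 for JUND, -0.64 for EGR1, 2.18 for EGR2 and 3.28 for EGR3. In ATAC-seq it was 0.83, 0.73 and 0.76 for the FOS regions with summits at -1708, 84 and 5268 bp from the start, 0.51 for the FOSL1 start, 0.43 for the FOSL2 start, 0.27 for the JUN start and 1.49 for the EGR3 region at -234 bp. The 268 regions within 5 Mb of FOS had a median of 0.39. The JUN start no longer passed without B-K562 replicate 2 or 3 or G-K562 replicate 1 or 2 (limma adjusted p of 0.057 to 0.10). Under the alternatives to the processing the FOSL2 start ranged from 0.118 to 0.641, with a limma adjusted p of up to 0.638, so its passing depends on the processing. A FOSL2 region with its summit 20870 bp after the start differed by 0.72, with a peak in 3 G-K562 libraries, 1 V-K562 library and 0 B-K562 libraries. It was tested only through its G-K562 peaks, at a scaled pileup of 28.7 ± 0.994 (SD). All its B-K562 values were set to 17, so the size of this difference and its p-value depend on that setting. The same holds for the EGR3 region at -234 bp, where 1 B-K562 library had a peak and the others were set to 17.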

How the results depend on the processing

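The counts of members called in RNA-seq, 0 in B-K562 and 5 in G-K562 against V-K562 and 4 in G-K562 against B-K562, moved by more than 1.5 times only when the fold criterion was dropped, to 6 in B-K562 and 8 between the BASP1 lines, and without single libraries, where B-K562 had 0 to 1. For regions the count in B-K562 was 1, and 0 with the mean pileup, without scaling, with a floor of 10, with a peak in every library, without the trend or with the replicate block, 5 without the fold criterion, 2 within 10 kb and 0 to 1 without single libraries. In G-K562 against V-K562 it was 0, and 2 without scaling, 1 with a floor of 10, 13 without the fold criterion and 2 within 10 kb. Between the BASP1 lines it was 1, and 2 without scaling, 2 with a floor of 10, 0 with a peak in every library, 8 without the fold criterion, 4 within 10 kb and 1 to 2 without single libraries. The cause was not tested where a count moved for reasons other than the criterion itself.

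Several differences near 0, none of which passed as reported, changed sign. In B-K562 against V-K562 cells FOSL2 was 0.084 with quantile normalization and -0.13 to 0.074 without single libraries, EGR3 was -0.023 with equal totals and -0.086 to 0.13 without single libraries, and JUND was -0.076 to 0.014. JUN between the BASP1 lines was -0.12 to 0.15, and EGR1 in G-K562 against V-K562 cells -0.33 to 0.018. Between the BASP1 lines the FOSB start was 0.048 with the mean pileup, 0.20 without scaling and -0.18 to 0.24 without single libraries, and the JUND start -0.023 to 0.085. The FOSL1 start in B-K562 was 0.066 and the EGR2 start in G-K562 0.18 without scaling, and the EGR2 start in B-K562 was -0.052 to 0.096 without single libraries.

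Same-numbered replicates did not deviate together (correlations of -0.10 to 0.15 in RNA-seq and -0.01 to 0.08 in ATAC-seq). The replicate block left 0, 5 and 4 members called, brought FOS between the BASP1 lines to an adjusted p of 0.029 and the EGR3 region at -234 bp in B-K562 to 0.0505, and moved no other call.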
